A study of Mus musculus with 12 samples.

Results

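The genes of the major histocompatibility complex (MHC) and of antigen presentation were followed in mouse liver under 3 conditions. The members were all gene symbols that start with H2-, 44 in number, and 13 further genes of antigen presentation, namely Cd74, B2m, Tap1, Tap2, Tapbp, Ciita, Nlrc5, Psmb8, Psmb9, Psmb10, Psme1, Psme2 and Erap1. These 57 genes, out of 24787 symbols in the count tables, were read as 44 genes of the class I pathway, 12 of the class II pathway and H2-Ke6. H2-Ke6 carries the H2- prefix because it lies in the complex, but it encodes a hydroxysteroid dehydrogenase and presents nothing. Whole-liver RNA from C57Bl/6 mice was sequenced. Mice had eaten a normal diet (ND) or a high-fat diet (HFD) for 2 months, after which the HFD mice were split at random into a group given daily intraperitoneal vehicle and a group given daily intraperitoneal MEC1 at 0.5 mg/kg (HFD+MEC1). MEC1 is a compound from a series on proteolysis-targeting chimeras that raise ubiquitination-dependent mitophagy. Each of the 3 groups had 4 libraries. How long dosing lasted, whether ND mice were injected, and the sex and age of the mice are not given in the sources used here. Nor is it stated that each library came from its own mouse, so the p-values measure only the spread between these libraries. The comparison of HFD with ND gives the difference between the diets, with vehicle given to HFD mice as part of it, and that of HFD+MEC1 with HFD gives the difference with the compound.

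Class I molecules are made by nearly all nucleated cells. A polymorphic heavy chain pairs with beta-2-microglobulin (B2m) and holds peptides that the proteasome cut in the cytosol, the Tap1 and Tap2 transporter carried into the endoplasmic reticulum, and Erap1 trimmed there. Class II molecules are made mainly by dendritic cells, B cells and activated macrophages, where an alpha and a beta chain assemble with the invariant chain Cd74, and H2-DM later exchanges the invariant chain remnant for peptides from the endocytic route. The transactivators Nlrc5 and Ciita drive the class I and class II genes respectively, and interferon gamma raises both pathways. In liver, class II RNA is known to come from resident immune cells far more than from hepatocytes. In whole-liver RNA, fewer cells of a type and less RNA per cell cannot be told apart.

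No member was called in any of the 3 comparisons, which does not show that none changed. The test was edgeR's quasi-likelihood F-test with Benjamini-Hochberg adjustment over 14172 tested genes, and a gene was called at an adjusted p under 0.05. Of the 57 members, 43 passed the filter on low counts and were tested: 32 of class I, 10 of class II and H2-Ke6. Called members numbered 0 of 43 in HFD against ND, where 6.3% of all tested genes were called, 0 in HFD+MEC1 against HFD, where 0.0282% were called, and 0 in HFD+MEC1 against ND, where 4.54% were called. DESeq2 and limma-voom called 0 class I and 0 class II members as well. Other ways of processing called 1 or 2 class I members: Psmb10 with 1 library left out, Psmb8 on the RPKM scale, and in a further fit Tap2 and the H2-Q8 row, while class II stayed at 0. At an unadjusted p under 0.05, 5 of the 43 differed between HFD and ND (11.6%, against 20.7% of all tested genes), 5 between HFD+MEC1 and HFD (11.6%, against 14.8%) and 7 between HFD+MEC1 and ND (16.3%, against 19.1%). Those shares of members lay below the shares over all tested genes in each comparison. The comparisons share libraries with each other, so their results are not independent.

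The remaining 14 members could not be tested. Of these, 12 had 0 counts in all 12 libraries: H2-M1, H2-M5, H2-M9, H2-M11, the 6 genes H2-M10.1 to H2-M10.6, H2-T3 and H2-Ea-ps. A count of 0 allows a level of up to 3 counts, which was 0.0590 to 0.0770 CPM depending on the library, where CPM is the count scaled by the TMM-adjusted library total. This limit covers counting error only and takes each count as a separate event. Low counts in these tables were mostly even numbers, so the limit may be set too low. The class II pseudogene H2-Ea-ps was among these, and the H2-b haplotype that C57BL/6 mice carry is known for a defective alpha chain gene of the I-E molecule. H2-Bl and H2-Eb2 reached at most 11 and 12 counts in any library. Members not tested were thus mostly the nonclassical H2-M genes, several of which are known for expression in the vomeronasal organ rather than in liver.

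Some rows of the count tables were not separate measurements. H2-Q8 and H2-Q6 had identical counts in 5 of 12 libraries and differed by at most 3 counts, H2-Q9 and H2-Q7 were identical in 6 and differed by at most 1, and H2-T9 and H2-T22 differed by at most 3.286%. H2-L ran at 71.1 to 73.3 counts for every 100 counts of H2-D1, and C57BL/6 mice are known to lack an H2-L gene. H2-L, H2-Q8, H2-Q9 and H2-T9 are also the 4 members without an entry in GENCODE M21. They are named here only beside the gene they follow. Among the others, the share of a gene's 50-base stretches that also occurs in another gene's transcripts was 34.5% for H2-T22, 32.0% for H2-Q6, 26.4% for H2-Q7, 19.0% for H2-Q10, 12.8% for H2-D1 and 9.63% for H2-K1. Values for these heavy chains may include reads from their relatives. The share was 0 for B2m, Nlrc5, Cd74, H2-Ab1, H2-Eb1 and Ciita.

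Levels per gene length put B2m and the most abundant class I heavy chains far above the class II chains. On the deposited RPKM scale, averaged over the 12 libraries, B2m stood highest at 1260 RPKM, followed by H2-Q10 at 1040, H2-K1 at 535, H2-D1 at 229 and H2-T23 at 102. Cd74 led class II at 37.8 RPKM, with H2-Aa at 17, H2-Ab1 at 15.7 and H2-Eb1 at 9.83. Other genes of the class I pathway lay in or near this range. Psme1 was at 42.8 RPKM, Tapbp at 18.9, Psmb8 at 16.4 and Tap1 at 5.62. The transactivators were low, Nlrc5 at 0.965 RPKM and Ciita at 0.187. H2-Q10, which ranked second, is a nonclassical class I heavy chain known for its secretion by hepatocytes. B2m and H2-Q10 lay close together in every group, while the steps down from H2-Q10 to H2-K1, from H2-K1 to H2-D1 and from H2-D1 to H2-T23 left no overlap between the ranges of the libraries.

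**Figure D1:**
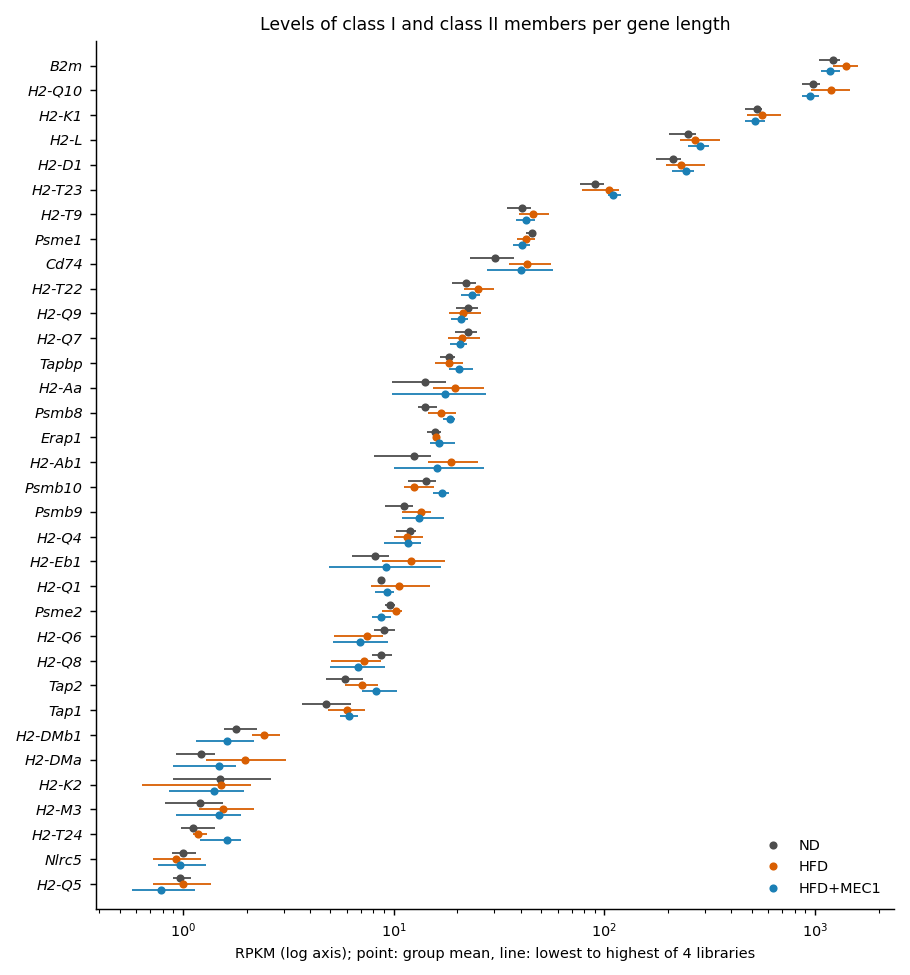
Level of the class I and class II members above 0.9 RPKM, per gene length. The logarithmic horizontal axis is RPKM, points are group means and lines run from the lowest to the highest of 4 libraries in ND (grey), HFD (orange) and HFD+MEC1 (blue); B2m and H2-Q10 are near 1000 RPKM and the class II chains near 10 to 40, and the 3 groups lie close together for most genes.

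The promoters of the most abundant class I genes show which of the pathway's known control letters lie in reach of each start site, and they are printed because H2-Q10 departs from H2-K1 and H2-D1 there. Each line holds 300 bases of RefSeq sequence on the GRCm38.p6 build, the assembly that mm10 names, from 250 bases before to 50 after the annotated start, 5′ to 3′ on the gene's strand. Capitals mark matches on either strand to 4 motifs: the Y box core CCAAT, an interferon-stimulated element read as GAAA, any 2 bases and GAAA, a palindromic kappaB site, whose letters stand in capitals in the H2-K1 and H2-D1 lines beside their Y boxes, and the gamma-activated site TTCNNNGAA, where N is any base. H2-K1 is chr17:34000284-34000583 on the minus strand, the first of 2 starts listed, H2-D1 is chr17:35262844-35263143 on the plus strand, H2-Q10 is chr17:35469839-35470138 on the plus strand and B2m is chr2:122147437-122147736 on the plus strand.
H2-K1: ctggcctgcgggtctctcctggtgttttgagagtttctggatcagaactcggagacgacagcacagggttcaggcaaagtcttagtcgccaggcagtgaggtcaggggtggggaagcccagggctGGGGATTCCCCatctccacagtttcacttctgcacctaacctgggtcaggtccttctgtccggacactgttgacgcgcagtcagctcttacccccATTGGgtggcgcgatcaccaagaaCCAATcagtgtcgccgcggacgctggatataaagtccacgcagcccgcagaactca
H2-D1: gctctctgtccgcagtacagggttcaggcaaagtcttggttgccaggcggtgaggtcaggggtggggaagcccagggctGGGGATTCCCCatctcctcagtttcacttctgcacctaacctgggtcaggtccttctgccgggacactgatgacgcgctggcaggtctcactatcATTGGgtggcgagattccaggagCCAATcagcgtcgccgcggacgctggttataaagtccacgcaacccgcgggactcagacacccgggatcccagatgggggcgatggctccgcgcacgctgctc
H2-Q10: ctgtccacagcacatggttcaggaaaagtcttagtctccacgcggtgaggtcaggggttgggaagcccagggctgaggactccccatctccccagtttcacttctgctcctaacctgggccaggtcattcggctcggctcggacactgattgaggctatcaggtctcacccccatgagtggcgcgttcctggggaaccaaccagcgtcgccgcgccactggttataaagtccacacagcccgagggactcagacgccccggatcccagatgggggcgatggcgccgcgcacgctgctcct
B2m: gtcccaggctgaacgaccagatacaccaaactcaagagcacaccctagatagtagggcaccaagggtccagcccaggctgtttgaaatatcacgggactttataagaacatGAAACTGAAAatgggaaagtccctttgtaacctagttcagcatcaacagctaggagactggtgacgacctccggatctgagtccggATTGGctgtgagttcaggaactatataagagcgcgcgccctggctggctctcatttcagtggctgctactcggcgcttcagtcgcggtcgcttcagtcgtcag

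H2-K1 and H2-D1 each held the kappaB letters, 125 and 171 bases before their annotated starts, and 2 matches to CCAAT. From the other H2-K1 start the kappaB letters were 111 bases away. These distances depend on the start used and do not by themselves show that the promoters differ. B2m held the interferon-stimulated letters 139 bases before its start and CCAAT 53 bases before it. The H2-Q10 window held no match to any of the 4 motifs, which says only that these letters are not in this window. Only exact matches were counted. The stretch agtttcacttct, found in the H2-K1, H2-D1 and H2-Q10 lines, resembles the interferon-stimulated letters without matching them. Of the 57 members, 41 had a RefSeq promoter entry that was used, 32 of class I and 8 of class II among them. Some genes have more than 1 listed start, so a gene was counted where any of its windows matched. CCAAT occurred in this way in 24 of the 32 class I genes and 8 of the 8 class II genes, against 41.1% of 27025 genes with windows of that length. Cd74, H2-Ab1, Ciita and H2-Ea-ps were not among these 8. The exact letters of the interferon-stimulated element occurred in 5 class I genes (B2m, Erap1, H2-T22, H2-T23 and Psme1) and in 0 of 8 class II genes, against 3.99% of all genes. Looser forms of the element were not searched for. The kappaB site was found in H2-D1, H2-K1 and H2-Q6, against 0.0333% of all genes, and TTCNNNGAA in Psmb8, H2-M3, H2-M11 and H2-DMb2, against 9.55%. Only 1 exact form of the kappaB site was searched for, the form that H2-K1 holds. H2-D1 and H2-Q6 are its relatives and share most bases around the site. These 3 finds are therefore not separate, and the share over all genes does not test enrichment. A match describes letters, not a bound factor.

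Class I genes differed little between the groups. The median log2 fold change over its 32 tested members was 0.00 in HFD against ND, -0.03 in HFD+MEC1 against HFD and -0.02 in HFD+MEC1 against ND, beside 0.00, 0.01 and 0.00 over all tested genes. Equal numbers of members, 16 and 16, were above and below 0 in HFD against ND. For 22 of the 32 members in each of the first 2 comparisons and for 21 in the third, the 95% interval of the difference lay within 1.5-fold of no change. These intervals bound what could have been missed, and for most class I genes they leave room for small changes only. With the 4 rows that repeat another member left out, the class I medians were 0.00, -0.03 and -0.01 over 28 genes. Scaling matters for the comparisons with ND: when CPM was scaled by unadjusted totals, all genes had a median of 0.12 in HFD against ND and class I 0.12 as well, and the share of called genes that were higher went from 53.2% to 79.5% (in HFD+MEC1 against ND from 47.2% to 66.8%). Differences from ND are given relative to the median gene.

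The classical heavy chains, which show peptides to CD8+ T cells, did not separate the groups. H2-K1 (chr17:33996017-34000347, mm10) was at 1030, 1250, 1180 and 1180 CPM in ND, 1090, 1000, 1330 and 1160 in HFD and 1030, 986, 1030 and 1250 in HFD+MEC1. The ranges overlapped throughout, and the log2 difference of HFD from ND was -0.02 ± 0.12 (SE; 95% interval -0.27 to 0.24; edgeR adjusted p = 0.959). H2-D1 (chr17:35262730-35267499) was at 409, 531, 507 and 505 CPM in ND, 450, 436, 606 and 477 in HFD and 460, 464, 592 and 605 in HFD+MEC1. Its log2 differences were 0.01 ± 0.14 (SE) for HFD against ND and 0.11 ± 0.14 for HFD+MEC1 against HFD. For both genes replicate 3 of HFD and replicate 4 of HFD+MEC1 were the highest of their groups.

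The light chain and the secreted heavy chain were lower in HFD+MEC1 than in HFD on average, without passing the test. B2m (chr2:122147686-122153083), which every class I heavy chain needs for folding, was at 1380, 1560, 1140 and 1430 CPM in ND, 1430, 1580, 1600 and 1330 in HFD and 1220, 1190, 1180 and 1480 in HFD+MEC1. Replicates 1 to 3 of HFD+MEC1 lay below all HFD libraries, while replicate 4 lay among them. The log2 difference was -0.23 ± 0.13 (SE; 95% interval -0.50 to 0.04; edgeR adjusted p = 0.418). H2-Q10 (chr17:35470089-35474563) was at 1710, 2080, 1960 and 1840 CPM in ND, 2130, 1800, 2530 and 2170 in HFD and 1770, 1760, 1630 and 1810 in HFD+MEC1. HFD and HFD+MEC1 met only between 1800 and 1810 CPM, where replicate 2 of HFD lay just under replicate 4 of HFD+MEC1. The log2 difference was -0.31 ± 0.12 (SE; 95% interval -0.57 to -0.05; edgeR adjusted p = 0.259). Hepatocyte markers summed to 87000 to 99800 CPM in HFD and 70300 to 94900 CPM in HFD+MEC1 over 6 of 6 markers tested. Singly, 3 of these markers had a difference above 0 and 3 below 0, with a median log2 difference of -0.08. The part of hepatocytes in the H2-Q10 difference was not tested.

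No other nonclassical heavy chain above 5 CPM passed the test, and H2-Q6 had the largest differences from ND among them. H2-T23, which encodes the Qa-1 molecule read by NK cell receptors, was at 136, 152, 168 and 171 CPM in ND, 176, 132, 180 and 197 in HFD and 166, 175, 179 and 207 in HFD+MEC1. Its largest log2 difference was 0.21 ± 0.12 (SE), for HFD+MEC1 against ND (edgeR adjusted p = 0.353). H2-Q6, a gene of the Qa-2 group, was at 13.3, 11.1, 10.1 and 12.2 CPM in ND, 10.9, 6.49, 8.64 and 10.2 in HFD and 10.6, 7.35, 6.44 and 9.52 in HFD+MEC1. Only replicates 1 and 4 of HFD and replicate 1 of HFD+MEC1 reached the lowest ND library. The log2 difference of HFD+MEC1 from ND was -0.46 ± 0.18 (SE; edgeR adjusted p = 0.161), and the row H2-Q8 repeated it. H2-Q7, another Qa-2 gene, was at -0.19 ± 0.12 (SE) in that comparison (edgeR adjusted p = 0.432), with H2-Q9 repeating it, H2-Q4 at -0.11 ± 0.11, H2-Q1 at 0.01 ± 0.13 and H2-T22 at 0.01 ± 0.10. Over all 18 tested nonclassical genes the log2 differences ran from -0.44 to 0.67 in HFD against ND, -0.33 to 0.45 in HFD+MEC1 against HFD and -0.47 to 0.46 in HFD+MEC1 against ND. The upper end of the last 2 was H2-T24, a gene at 2.71 to 4.95 CPM, with edgeR adjusted p = 0.260 and 0.181.

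Among the transport and loading genes, Tap1 and Tap2 were higher on average in HFD+MEC1 than in ND and did not pass. Tap2 (chr17:34203527-34216321) was at 15.9, 16.5, 22.7 and 21.7 CPM in ND, 19.9, 18.7, 24.4 and 23.5 in HFD and 20.3, 24.2, 33.2 and 26.2 in HFD+MEC1. Replicate 3 of HFD+MEC1 was the highest of all 12, and replicate 1 of that group lay within the ND range. The log2 difference of HFD+MEC1 from ND was 0.43 ± 0.15 (SE; 95% interval 0.11 to 0.76; edgeR adjusted p = 0.124). Tap1 (chr17:34187553-34197225) was at 14.5, 18.8, 23.6 and 17.2 CPM in ND, 23.4, 18.3, 24.9 and 20.3 in HFD and 21.2, 20.9, 25.4 and 23.2 in HFD+MEC1, with a log2 difference of 0.29 ± 0.14 (SE; edgeR adjusted p = 0.259) for HFD+MEC1 against ND. Without strand information, 18.5% of the exonic length of Tap2 cannot be told apart from genes on the opposite strand. Other named members share this limit. The share was 29.4% for H2-T22, 24.9% for Tapbp, 22.8% for H2-Oa, 19.1% for H2-Q4, 14.7% for Psmb8, 11.5% for Erap1 and 10.4% for H2-DMa. Tapbp, the tapasin that bridges the transporter and the empty class I molecule, was at 60.9 to 69.8 CPM in ND, 53.7 to 68.7 in HFD and 62.4 to 84.1 in HFD+MEC1. Its log2 difference was 0.18 ± 0.11 (SE) for HFD+MEC1 against HFD (edgeR adjusted p = 0.460). Erap1, the trimming peptidase, was at 73.7 to 93.1 CPM in all libraries, and its 3 log2 differences were -0.09, 0.07 and -0.03, each with an SE of 0.09.

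The immunoproteasome subunits, which replace the constitutive catalytic subunits of the proteasome under interferon, did not share 1 pattern. Psmb10 (chr8:105935735-105938444) was at 27.1, 20.6, 23.2 and 25.5 CPM in ND, 18.2, 18.3, 17.1 and 25.3 in HFD and 22.4, 27.7, 29.5 and 28.8 in HFD+MEC1. Replicates 1 to 3 of HFD were below every library of the other groups, and replicate 4 of HFD was not. The log2 difference of HFD from ND was -0.29 ± 0.13 (SE; edgeR adjusted p = 0.225) and that of HFD+MEC1 from HFD was 0.46 ± 0.13 (SE; 95% interval 0.18 to 0.73; edgeR adjusted p = 0.138), the lowest adjusted p of any member in the latter comparison. The 2 differences share the HFD libraries. With replicate 4 of HFD left out they were -0.43 and 0.60 on the log2 scale, with edgeR adjusted p = 0.0421 and 0.0399, and with replicate 1 of HFD+MEC1 left out the latter was 0.54 with edgeR adjusted p = 0.0395. The call on Psmb10 therefore rested on single libraries.

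Psmb8 (chr17:34197721-34201454) was at 21.3, 23.3, 20.8 and 25.4 CPM in ND, 23.9, 22.6, 24.8 and 31.0 in HFD and 24.1, 28.3, 29.4 and 31.4 in HFD+MEC1. Only replicate 1 of HFD+MEC1 overlapped the ND range, and the log2 difference of HFD+MEC1 from ND was 0.32 ± 0.11 (SE; 95% interval 0.08 to 0.56; edgeR adjusted p = 0.124). On the log2(RPKM + 0.1) scale it was 0.39 (limma adjusted p = 0.0480). Psmb9 (chr17:34181987-34187764) was at 9.87 to 12.8 CPM in ND, 11.4 to 15.2 in HFD and 11.2 to 17.9 in HFD+MEC1, and its log2 difference of HFD+MEC1 from HFD was 0.00 ± 0.15 (SE; edgeR adjusted p = 1.000). Set against the constitutive subunits they replace, in pairs chosen after the values were seen and given without a test, Psmb10 had 19.2 ± 3.05 counts per 100 counts of Psmb7 in ND, 13.8 ± 3.0 in HFD and 20.2 ± 2.9 in HFD+MEC1 (mean ± SD, n = 4 each). Psmb8 had 35.7 ± 6.07, 36.0 ± 5.82 and 40.8 ± 2.31 counts per 100 of Psmb5, and Psmb9 had 15.2 ± 2.48, 16.2 ± 1.23 and 15.6 ± 3.49 per 100 of Psmb6 (mean ± SD, n = 4 each). These ratios do not depend on library scaling, but they move with both genes of a pair. Psmb7 was 1 of 4 genes, of 15 on the constitutive proteasome list, that were higher in HFD than in ND at an unadjusted edgeR p under 0.05. That is 26.7%, against 20.7% of all tested genes, and Psmb7 was not called.

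**Figure D2:**
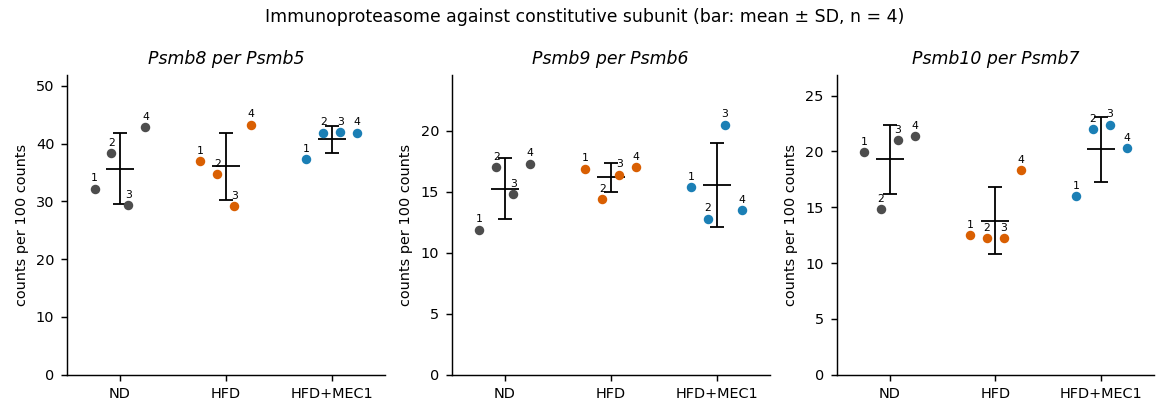
Immunoproteasome subunits against the constitutive subunits they replace, by library. The vertical axis is counts of the first gene per 100 counts of the second, points are libraries numbered by replicate and bars are mean ± SD (n = 4); for Psmb10 per Psmb7, 3 of 4 HFD libraries sit at 12.2 to 12.5 and replicate 4 at 18.3, while the other pairs overlap across groups.

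The activator cap that Psme1 and Psme2 form on the proteasome held the 1 member whose groups did not overlap in a comparison. Psme1 (chr14:55578123-55581529) was at 62.1, 57.9, 58.5 and 58.4 CPM in ND, 47.2, 51.1, 50.6 and 58.9 in HFD and 50.3, 49.8, 46.4 and 52.1 in HFD+MEC1. All HFD+MEC1 libraries lay below all ND libraries. Groups that did not overlap, in either direction, were seen for 1 of 43 members and 11% of all tested genes in this comparison, for 0 of 43 and 14.3% in HFD against ND, and for 0 of 43 and 7.11% in HFD+MEC1 against HFD. The log2 difference was -0.25 ± 0.08 (SE; 95% interval -0.42 to -0.09; edgeR adjusted p = 0.0817), the lowest adjusted p of any member in any comparison. Psme2 (chr14:55587441-55591113) was at 11.3 to 13.8 CPM in ND, 10.8 to 13.9 in HFD and 9.86 to 11.7 in HFD+MEC1, with a log2 difference of -0.23 ± 0.11 (SE; edgeR adjusted p = 0.292) for HFD+MEC1 against ND, and 28.3% of its 50-base stretches occur in another gene. Psme1 and the interferon-inducible subunit Psmb8 thus had differences of opposite sign in this comparison, and neither passed.

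Nlrc5 (chr8:94434356-94527272), the transactivator of class I genes, was at 9.44, 8.50, 8.58 and 10.4 CPM in ND, 7.94, 7.70, 5.82 and 10.9 in HFD and 6.80, 8.57, 11.4 and 6.90 in HFD+MEC1. The groups overlapped throughout. Its log2 differences were -0.19, 0.06 and -0.13, each ± 0.19 (SE), with edgeR adjusted p of 0.624, 0.918 and 0.768 in HFD against ND, HFD+MEC1 against HFD and HFD+MEC1 against ND.

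**Figure D3:**
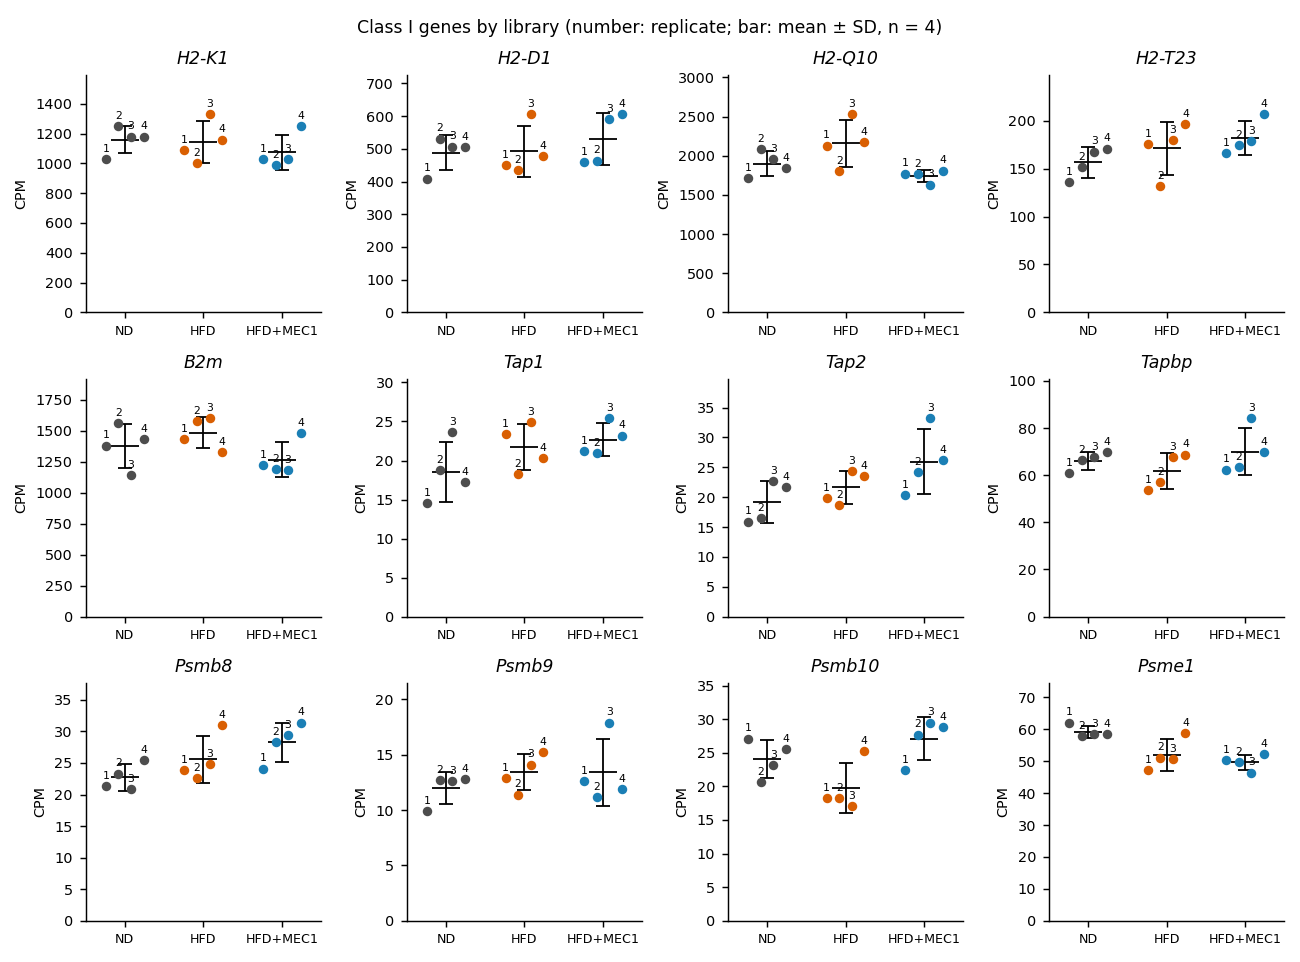
Class I genes by library. The vertical axes are CPM from 0, points are libraries numbered by replicate and bars are mean ± SD (n = 4) in ND, HFD and HFD+MEC1; Psme1 is the only gene whose HFD+MEC1 libraries all lie below the ND libraries, and replicate 4 of HFD stands above the other HFD libraries for Psmb10.

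Class II differences were larger on average than those of class I and less precise. The median log2 fold change over its 10 tested members was 0.39 in HFD against ND, with 8 of 10 above 0, then -0.17 in HFD+MEC1 against HFD, with 7 of 10 below 0, and 0.14 in HFD+MEC1 against ND, with 7 of 10 above 0. None of the 10 passed the test in any comparison. The 95% interval lay within 1.5-fold of no change for 0, 1 and 0 of the 10 in these comparisons, and within 2-fold for 4, 6 and 7. A change of 1.5-fold could thus have been missed for nearly all class II genes. The genes are expressed together in the same cells, so their shared sign is not 10 separate observations.

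The chains that form the class II molecule and its invariant chain were higher on average in HFD than in ND. Cd74, the invariant chain, was at 49.7, 45.3, 66.9 and 63.1 CPM in ND, 77.4, 63.5, 92.3 and 67.2 in HFD and 93.1, 49.9, 65.9 and 74.7 in HFD+MEC1. The ND and HFD ranges met only between 63.5 and 66.9 CPM, while HFD+MEC1 spanned most of both. The log2 difference of HFD from ND was 0.42 ± 0.19 (SE; 95% interval 0.01 to 0.82; edgeR adjusted p = 0.226), and that of HFD+MEC1 from HFD was -0.08 ± 0.19 (edgeR adjusted p = 0.880).

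H2-Ab1 (chr17:34257689-34269419), the beta chain of the I-A molecule, was at 18.6, 13.4, 22.9 and 23.3 CPM in ND, 27.1, 24.9, 34.8 and 22.3 in HFD and 36.9, 15.3, 18.4 and 24.5 in HFD+MEC1. H2-Aa (chr17:34282744-34287823), its alpha chain partner, was at 17.7, 14.6, 24.1 and 22.9 CPM in ND, 25.8, 22.2, 33.3 and 21 in HFD and 33.8, 13.4, 20.9 and 24.6 in HFD+MEC1. In both genes the HFD+MEC1 group held the highest library of all 12, its replicate 1. The log2 differences of HFD from ND were 0.48 ± 0.27 (SE) for H2-Ab1 and 0.37 ± 0.26 for H2-Aa, with edgeR adjusted p of 0.351 and 0.471. H2-Eb1 (chr17:34305867-34316674), the beta chain of the I-E molecule, was at 16.9, 14.6, 19.7 and 20.5 CPM in ND, 24.8, 21.5, 34.1 and 18.9 in HFD and 32.1, 10.4, 13.7 and 19.2 in HFD+MEC1. Its log2 difference was 0.47 ± 0.32 (SE) for HFD against ND (edgeR adjusted p = 0.450) and -0.40 ± 0.32 for HFD+MEC1 against HFD (edgeR adjusted p = 0.612). H2-Eb1 RNA was thus present, at 9.83 RPKM on average, while H2-Ea-ps, in the place of its alpha chain partner, had 0 counts.

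The same libraries were high or low for all 4 of these genes. Replicate 2 of ND was the lowest ND library, replicate 3 of HFD the highest HFD library, and replicates 1 and 2 of HFD+MEC1 the highest and the lowest of their group in 4 of 4 genes. Within HFD+MEC1 the highest library exceeded the lowest 1.87 times for Cd74, 2.52 times for H2-Aa, 2.42 times for H2-Ab1 and 3.08 times for H2-Eb1. With replicate 1 of HFD+MEC1 left out, the difference of that group from HFD became -0.78 for H2-Eb1 (edgeR adjusted p = 0.0856) and -0.49 for H2-Ab1 on the log2 scale. Leaving out single libraries moved the class II median between -0.37 and 0.01 in HFD+MEC1 against HFD, between 0.28 and 0.49 in HFD against ND and between -0.01 and 0.33 in HFD+MEC1 against ND. Of these, the difference of HFD from ND kept its sign throughout.

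**Figure D4:**
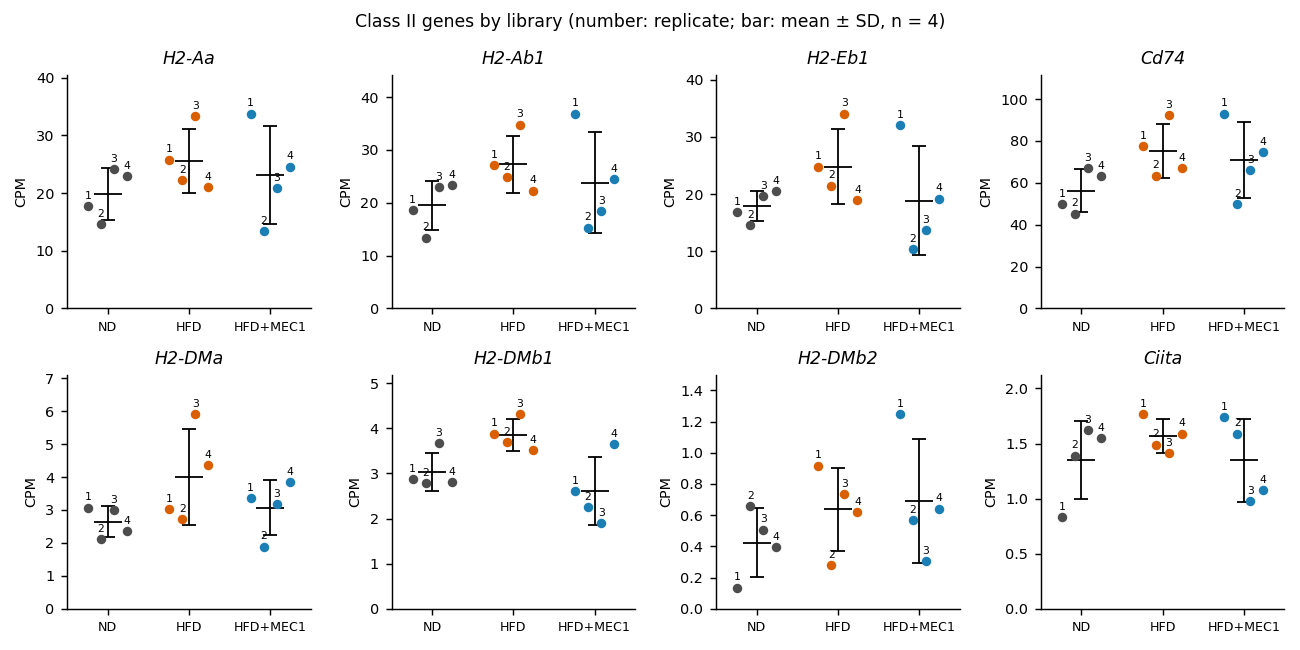
Class II genes by library. The vertical axes are CPM from 0, points are libraries numbered by replicate and bars are mean ± SD (n = 4) in ND, HFD and HFD+MEC1; in H2-Aa, H2-Ab1, H2-Eb1 and Cd74, replicate 1 of HFD+MEC1 is the highest and replicate 2 the lowest of that group.

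Because the class II chains varied together across libraries, the windows before H2-Aa and H2-Eb1 are printed, in the same way and with the same capitals as above. H2-Aa is chr17:34287774-34288073 on the minus strand and H2-Eb1 is chr17:34305617-34305916 on the plus strand.
H2-Aa: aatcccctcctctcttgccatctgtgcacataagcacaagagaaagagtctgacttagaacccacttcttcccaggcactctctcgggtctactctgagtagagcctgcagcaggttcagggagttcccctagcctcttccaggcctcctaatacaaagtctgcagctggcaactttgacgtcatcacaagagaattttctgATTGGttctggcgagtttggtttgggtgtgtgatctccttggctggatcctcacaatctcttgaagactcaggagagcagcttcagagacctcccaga
H2-Eb1: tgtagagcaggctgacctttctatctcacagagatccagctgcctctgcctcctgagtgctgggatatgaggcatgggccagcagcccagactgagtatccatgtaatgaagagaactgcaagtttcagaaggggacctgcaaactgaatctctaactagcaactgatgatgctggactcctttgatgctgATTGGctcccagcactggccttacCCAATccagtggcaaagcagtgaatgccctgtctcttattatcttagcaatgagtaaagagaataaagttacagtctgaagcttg

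CCAAT letters lay 48 bases before the H2-Aa start and 59 and 35 bases before the H2-Eb1 start. Neither window held any of the other 3 motifs. H2-Ab1, Ciita, Nlrc5 and Tap2 had no entry in the promoter table.

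The peptide editors act on class II molecules in the endocytic compartment: H2-DM loads peptides and H2-O restrains H2-DM. H2-DMa (chr17:34119541-34139101), the alpha chain of H2-DM, was at 3.07, 2.12, 3.00 and 2.36 CPM in ND, 3.03, 2.72, 5.92 and 4.37 in HFD and 3.35, 1.89, 3.18 and 3.85 in HFD+MEC1. Its log2 difference of HFD from ND was 0.61 ± 0.27 (SE; 95% interval 0.04 to 1.17; edgeR adjusted p = 0.209), and replicates 3 and 4 of HFD stood above the rest. H2-DMb1 (chr17:34153072-34160230), a beta chain, was at 2.87, 2.78, 3.67 and 2.81 CPM in ND, 3.88, 3.69, 4.32 and 3.51 in HFD and 2.61, 2.26, 1.90 and 3.65 in HFD+MEC1. Replicate 4 of HFD+MEC1 was its only library that reached the HFD range, and the log2 difference from HFD was -0.56 ± 0.21 (SE; 95% interval -1.0 to -0.13; edgeR adjusted p = 0.217). Of its 50-base stretches, 22.7% are shared with H2-DMb2, whose 3 log2 differences were 0.59, 0.13 and 0.71 with SE of 0.52 or 0.53. H2-Oa and H2-Ob, the chains of H2-O, known from B cells and some dendritic cells, were near the limit of these libraries, at 0 to 0.314 and 0.259 to 1.31 CPM. H2-Oa was at 0.226, 0.0942, 0.242 and 0.248 CPM in ND, 0.0459, 0.129, 0.0396 and 0 in HFD and 0.170, 0.314, 0.231 and 0.0917 in HFD+MEC1, where 3 counts correspond to 0.0590 to 0.0770 CPM. No fold is given for it, since 3 of the 4 HFD libraries lay under that level.

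Ciita (chr16:10480059-10528418), the transactivator of class II genes, did not pass the test in any comparison. It was at 0.835, 1.39, 1.62 and 1.55 CPM in ND, 1.77, 1.49, 1.41 and 1.59 in HFD and 1.74, 1.59, 0.975 and 1.08 in HFD+MEC1. Its HFD libraries held 77, 69, 71 and 72 counts, too close together for their order to be set against that of the chains. In HFD+MEC1 the counts were 82, 81, 38 and 47, so replicates 1 and 2, the extremes for the chains, were nearly equal for Ciita. The log2 difference of Ciita between HFD and ND was 0.21 ± 0.28 (SE; 95% interval -0.38 to 0.80; edgeR adjusted p = 0.725).

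**Figure D5:**
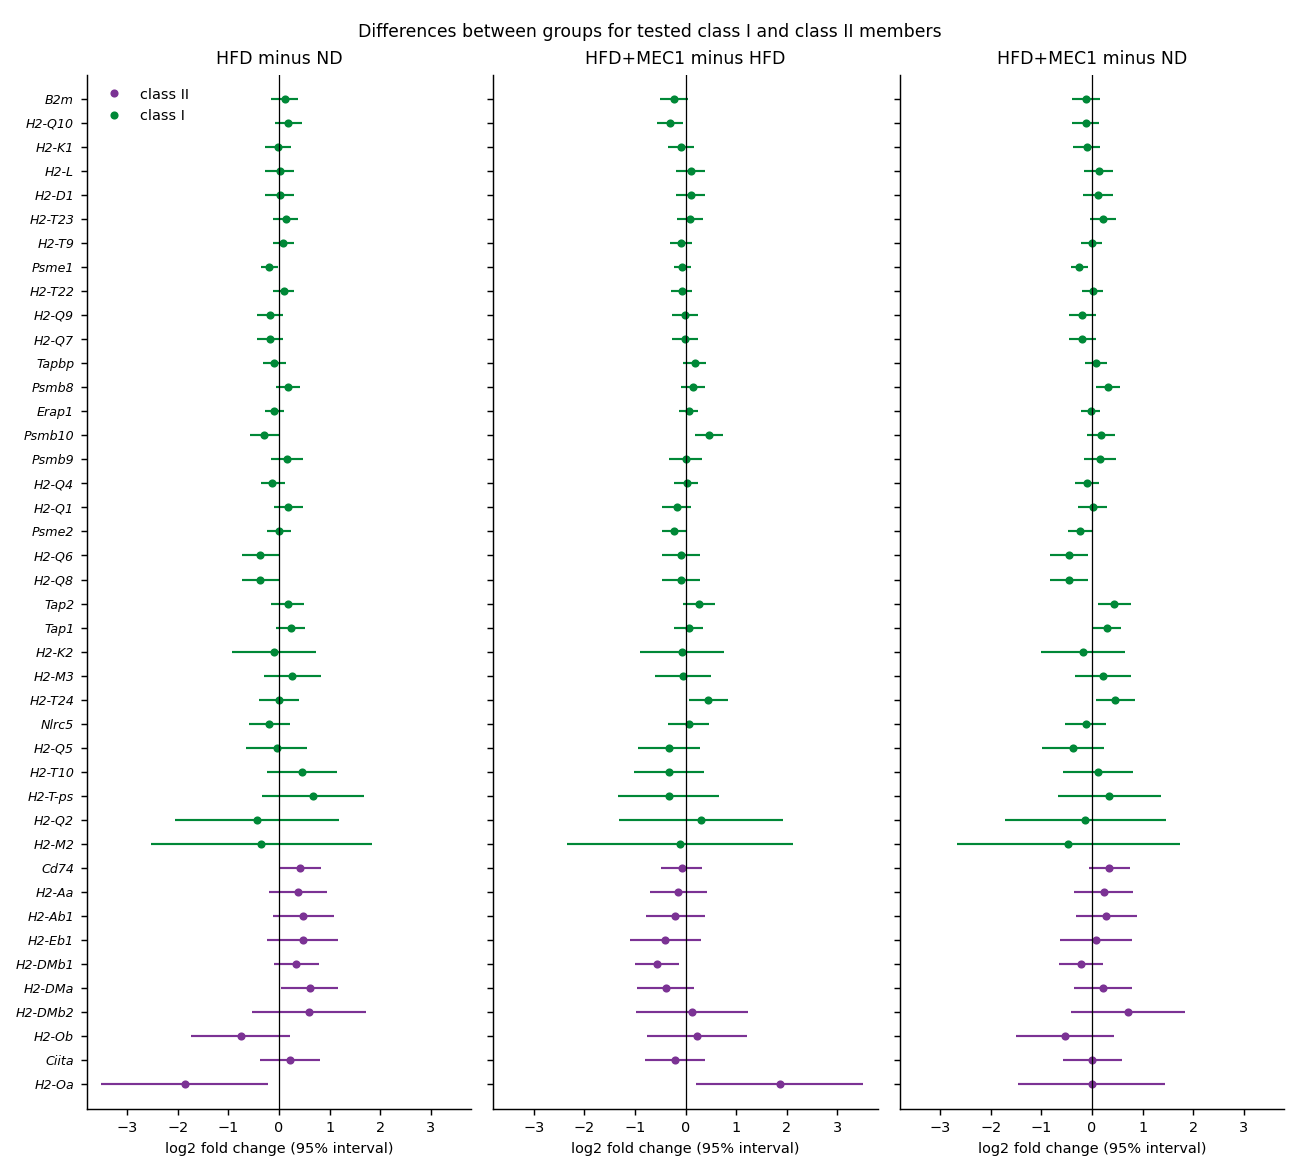
Log2 fold changes of the 42 tested class I and class II members in the 3 comparisons. Points are edgeR estimates and lines are 95% intervals, class I in green and class II in purple, ordered within each class by mean RPKM. In HFD against ND the interval lay within 1.5-fold of no change for 22 of 32 class I and 0 of 10 class II members. Low-count members of either class, such as H2-M2 and H2-Oa, have wide intervals. In HFD against ND, 8 of 10 class II points lie above 0.

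Markers of the cells that carry class II were measured beside it. Summed over 8 dendritic cell markers, all tested and none at 0 in all libraries, the level was 5.91 to 6.31 CPM in ND, 6.84 to 8.19 in HFD and 6.01 to 7.60 in HFD+MEC1. The HFD sums lay above the ND sums, but 0 of the 8 markers separated these groups by itself, while 14.3% of all tested genes did. B cell markers, 5 of 6 tested, summed to 2.51 to 3.52, 3.11 to 4.32 and 2.71 to 4.20 CPM in the same order. Kupffer cell and macrophage markers, 10 of 10 tested, summed to 314 to 469, 379 to 593 and 443 to 600 CPM. Of these 3 lists, edgeR called 0 markers in any comparison. At an unadjusted p under 0.05 the dendritic cell, B cell and macrophage lists, of 8, 5 and 10 tested markers, had 1, 0 and 3 markers in HFD against ND, 0, 0 and 0 in HFD+MEC1 against HFD and 0, 0 and 5 in HFD+MEC1 against ND. The shares over all tested genes were 20.7%, 14.8% and 19.1% in these comparisons. In HFD against ND, 6 of 8 dendritic cell markers, 4 of 5 B cell markers and 10 of 10 macrophage markers had a difference above 0, as did 8 of 10 class II members and 6994 of all 14172 tested genes. Within HFD+MEC1, replicates 1 and 2, the extremes for class II, had dendritic cell sums of 7.35 and 6.11 CPM, B cell sums of 4.20 and 3.01 CPM and macrophage sums of 443 and 600 CPM. The first 2 sums followed the class II order of those 2 libraries and the last did not, but other libraries differed. Replicate 3 of HFD+MEC1 had the highest dendritic cell sum of its group, 7.60 CPM, with H2-Ab1 at only 18.4 CPM. Replicate 3 of HFD, the highest HFD library for the class II chains, had the highest B cell and macrophage sums of HFD, 4.32 and 593 CPM. Its dendritic cell sum, 7.51 CPM, lay below the 8.19 CPM of replicate 1. The part of these cells in the class II differences was not tested.

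Upstream of both pathways, some interferon genes rose while the members did not pass. Among 9 tested genes of interferon gamma signalling, 0 were called in HFD+MEC1 against HFD, where 3 (33.3%) had an unadjusted p under 0.05, against 14.8% of all tested genes. In HFD+MEC1 against ND 2 rose, where 4.54% of all tested genes were called in either direction. In HFD+MEC1 against ND, Irf9, the DNA-binding part of the factor that type I interferon activates, rose from 24.2 ± 0.486 to 33.6 ± 2.23 CPM (SD, n = 4 each; edgeR adjusted p = 0.00436), and Ifngr2, a chain of the interferon gamma receptor, from 14.4 ± 0.847 to 20.1 ± 3.10 CPM (SD, n = 4 each; edgeR adjusted p = 0.0442). Irf1, which drives Psmb9 and Tap1 under interferon gamma, was at 15.5 ± 2.07 CPM in HFD and 22.8 ± 2.89 in HFD+MEC1 (SD, n = 4 each) without overlap, as were 7.11% of all tested genes, with a log2 difference of 0.56 ± 0.12 (SE; edgeR adjusted p = 0.0788). Its difference of HFD from ND was -0.34 ± 0.12 (edgeR adjusted p = 0.112), from libraries that both comparisons share. The call on Ifngr2 was lost with 8 of the 12 single libraries left out (all except replicates 3 and 4 of HFD and replicates 1 and 2 of HFD+MEC1; edgeR adjusted p up to 0.123) and with limma-voom, and that on Irf9 with 0 of the 12.

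Of 16 interferon-stimulated genes, 6 rose and 0 fell in HFD against ND, where 6.3% of all tested genes were called. Their median log2 difference was 0.47, beside 0.00 over all genes and 0.00 over class I. The 6 were Ifit1, Ifit3, Rsad2, Usp18, Gbp3 and Iigp1. Ifit1, an antiviral RNA-binding protein, rose from 5.56 ± 0.445 CPM in ND to 11.1 ± 1.67 in HFD (SD, n = 4 each; edgeR adjusted p = 0.000706). Iigp1, an interferon-inducible GTPase, rose from 280.0 ± 18.3 to 381 ± 15.5 CPM (SD, n = 4 each; edgeR adjusted p = 0.00919). In HFD+MEC1 against HFD, 0 of the 16 were called and 1 (6.25%) had an unadjusted p under 0.05, against 14.8% of all tested genes, with a median of 0.03. In HFD+MEC1 against ND, 5 of the 16 rose (Ifit1, Isg15, Rsad2, Usp18 and Iigp1), where 4.54% of all tested genes were called, with a median of 0.43. With single libraries left out, the calls on Ifit1, Usp18, Iigp1 and Isg15 stayed. In HFD against ND that on Ifit3 was lost with 8 of the 12 libraries left out in turn (all except replicate 2 of ND, replicate 4 of HFD and replicates 1 and 3 of HFD+MEC1), that on Gbp3 with 3 (replicates 1 and 4 of ND and replicate 1 of HFD), and in HFD+MEC1 against ND that on Rsad2 was lost with 3 (replicates 2 and 4 of ND and replicate 4 of HFD+MEC1), at edgeR adjusted p up to 0.166, 0.058 and 0.0584. Whether these genes differed more than the class I members was not tested.

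The other lists of the pathway gave few calls. Over all tested genes the called shares were 6.3% in HFD against ND, 0.0282% in HFD+MEC1 against HFD and 4.54% in HFD+MEC1 against ND. Among 5 costimulators, Cd86, which antigen-presenting cells show to T cells beside class II, rose in HFD against ND from 2.55 ± 0.347 to 4.27 ± 0.927 CPM (SD, n = 4 each; log2 difference 0.75 ± 0.19 SE; edgeR adjusted p = 0.0251), and in HFD+MEC1 against ND to 4.19 ± 0.401 CPM (edgeR adjusted p = 0.0387). Among 5 MHC-like molecules, Fcgrt, the neonatal Fc receptor that also pairs with B2m, rose in HFD against ND from 112 ± 12.2 to 149 ± 17.8 CPM (SD, n = 4 each; edgeR adjusted p = 0.0256). Mr1, which presents vitamin B metabolites to MAIT cells, fell in HFD+MEC1 against ND from 7.10 ± 0.853 to 3.49 ± 0.565 CPM (SD, n = 4 each; log2 difference -1.02 ± 0.23 SE; edgeR adjusted p = 0.0194), with 4.09 ± 1.44 CPM in HFD (edgeR adjusted p = 0.0514 against ND). Single libraries decided these calls: that on Cd86 was lost in HFD against ND without replicate 3 or 4 of ND or replicate 3 of HFD and in HFD+MEC1 against ND without any 1 ND or HFD+MEC1 library, that on Fcgrt without replicate 1, 2 or 4 of ND or replicate 3 of HFD, and that on Mr1 without replicate 4 of ND or replicate 3 of HFD+MEC1 (edgeR adjusted p up to 0.103, 0.113, 0.1 and 0.0696). In HFD+MEC1 against ND Cd86 also did not pass with limma-voom. Of 15 genes of the constitutive proteasome list, Psma3 rose in HFD against ND (edgeR adjusted p = 0.0103), and 0 were called in the other comparisons, with 0 and 2 at an unadjusted p under 0.05. edgeR called 0 of 5 class I folding chaperones, 0 of 7 genes of the factors that bind class II promoters and 0 of 7 class II proteases and turnover genes in each comparison. At an unadjusted p under 0.05 these lists had 0, 2 and 2, then 0, 0 and 0, then 2, 1 and 2 genes in HFD against ND, HFD+MEC1 against HFD and HFD+MEC1 against ND. The shares over all tested genes were 20.7%, 14.8% and 19.1% in that order.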

How the data were processed

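RNA sequencing covered 12 liver samples, 4 each on ND, HFD and HFD+MEC1. Per the file headers, the authors deposited a count table per sample, keyed by gene symbol, and an RPKM table over all of them, in which 12 further columns without a matching label were not used. STAR 2.7.10a and mm10 are named in the submitters' processing notes. The counting tool and its use of strand are not given in the sources used here. Library totals of the deposited counts were 39916405 to 51340317. Even numbers made up 70.1 to 74.7% of the values from 1 to 20, so counting error may be larger than the totals alone give.

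Genes were filtered with filterByExpr (14172 of 24787 kept), scaled with TMM and fitted over all 3 groups with edgeR 4.0.16 in R 4.3.3 (robust quasi-likelihood F-test, two-sided, Benjamini-Hochberg adjustment over all tested genes, threshold 0.05). The biological coefficient of variation was 0.200. No replicate pair fell within counting error (lowest chi-square over genes, per gene, 35.3). Alternatives used DESeq2 1.42.0, limma 3.58.1 with voom or on log2(RPKM + 0.1) and log2(RPKM + 1), library totals in place of TMM, no filter, only the groups compared, a replicate block, each library left out in turn, and, chosen after seeing the data, the 4 repeating rows left out. The scripts were tested on simulated data. Same-numbered replicates were checked for shared deviations and are not treated as pairs. Symbols, coordinates and shared 50-base stretches come from GENCODE M21 transcripts. Named members are all that pass the threshold, 20 classical genes of both pathways whether or not they pass, and nonclassical heavy chains above 5 CPM. Members named outside that rule (H2-T24, H2-DMb2, H2-Oa, H2-Ob and the untested ones) were chosen after their values were seen. The members and all lists were chosen with earlier results of these data known. One gene of the pathway lists is not reported here.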

Additional observations from a re-analysis of the deposited data

Results flagged for a closer look

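In 7 of 90 groups of 4 libraries examined over 30 named genes, the highest or lowest library stood apart from the other 3 by a gap above Dixon's critical share of the range for 4 values at the 95% level; chance alone marks about 1 group in 20. B2m was at 1480 CPM in replicate 4 of HFD+MEC1, with the others at 1180 to 1220. Psmb10 was at 25.3 CPM in replicate 4 of HFD, with the others at 17.1 to 18.3. Erap1 was at 74.8 CPM in replicate 3 of HFD, with the others at 79.3 to 80.1. The other 4 were in ND: Psmb9 at 9.87 CPM (others 12.6 to 12.8) and Psme1 at 62.1 CPM (others 57.9 to 58.5) in replicate 1, H2-Q4 at 25.4 CPM (others 28.7 to 29.3) in replicate 2 and H2-DMb1 at 3.67 CPM (others 2.78 to 2.87) in replicate 3.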

How the results depend on the processing

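For 30 named genes in 3 comparisons, 1844 of 1881 alternative values stayed within 1 SE and on the same side of the threshold, and 6 passed it that had not. Library totals in place of TMM shifted the median of all genes by 0.12 (log2) in HFD against ND, and the class I median to 0.12 with it. DESeq2 called 1391 genes in HFD against ND, 389 in HFD+MEC1 against HFD and 1155 in HFD+MEC1 against ND, beside 893, 4 and 644. In HFD+MEC1 against HFD, library totals called 0 genes, limma-voom 2, no filter 17, RPKM with pseudocount 0.1 called 0 and with pseudocount 1 called 1, and only the 2 groups compared 2. The replicate block called 21 there. In HFD+MEC1 against ND, the block called 2 class I members, Tap2 (0.43, adjusted p = 0.0175) and H2-Q8 (-0.48, adjusted p = 0.0498), a row that repeats H2-Q6 (-0.48, adjusted p = 0.0507), and RPKM with pseudocount 0.1 called 1, Psmb8 (0.39, adjusted p = 0.0480); the cause was not tested. The block also ended the calls on Ifit3 in HFD against ND and on Cd86 in HFD+MEC1 against ND. Same-numbered replicates had correlations of deviations of -0.0942 to 0.133, so the numbers do not pair the libraries. With single libraries left out, genes called ran from 423 to 1109 in HFD against ND, 0 to 460 in HFD+MEC1 against HFD and 334 to 678 in HFD+MEC1 against ND, class I members called from 0 to 1, 0 to 1 and 0 to 0, class II members called stayed at 0, class I medians from -0.04 to 0.07, -0.07 to 0.03 and -0.05 to 0.03, and class II medians from 0.28 to 0.49, -0.37 to 0.01 and -0.01 to 0.33. Genes under about 1 CPM, such as H2-Oa and H2-Ob, are limited by depth.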
